A study of Rattus norvegicus with 9 samples.

Results

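The 46 genes described here carry out or control DNA replication and cell division, and they were taken by gene symbol from the 23768 genes of a count table of rat tibia RNA. All 46 had enough reads to be tested, with 388 to 69051 counts in a library. They were sorted by textbook role into 9 replication genes (Mcm2 to Mcm7, Pcna, Rrm1 and Rrm2), 6 other replication genes, 7 genes of the G1/S step and of cell cycle transcription, and 24 mitosis genes. The study sequenced total RNA of the tibia of male Sprague Dawley rats (Rattus norvegicus), and its title names a peptide that imitates lysyl oxidase and bone healing in diabetes. The libraries form 3 groups of 3: the Model group with the replicate numbers 1, 2 and 5, the GelMA-treated group with 2, 3 and 4, and the PMLGH-treated group, also with 2, 3 and 4. Gelatin methacryloyl, commonly shortened to GelMA, is a modified gelatin that sets into a hydrogel. None of the following was given in the sources used here: the meaning of PMLGH, what the Model animals received, their age, the time of sampling, and whether or how diabetes was induced. Whether replicates came from separate animals is not stated either, and the p-values measure only the spread between these libraries, which may be technical. The question was whether transcripts of proliferating cells differed between the groups, and whether replication and mitosis genes differed alike.

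A dividing cell copies its DNA in S phase and separates the copies in mitosis. Before S phase, cyclin E with its kinase releases E2F factors, which switch on genes of the helicase, the sliding clamp and nucleotide synthesis. Genes of mitosis are switched on later, in G2, when the MuvB complex with the factors MYBL2 and FOXM1 acts at the cell cycle genes homology region (CHR) of their promoters, often beside CCAAT boxes that bind the factor NF-Y. In adult bone, most dividing cells are blood precursors in the marrow, with erythroid precursors among the most active, while a healing bone also holds dividing stromal and cartilage cells.

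These promoter elements were looked up in the RefSeq sequences of the GRCr8 rat build, which gave a promoter for 35 of the 46 genes, from 250 bases before to 50 after the transcript start. Of the 37 entries for these genes, 12 had their transcript start at the 5′ end of the gene. The others start elsewhere, so a window without a motif does not show that the main promoter of the gene lacks it. Both strands were searched for the letters TTTGAA of the CHR, the letters CCAAT, and the letters TTCCCGC of E2F sites with the variants TTCGCGC, or TTGCCGC, or also TTGGCGC, called E2F-like below. The 6 windows below show how the elements lie in replication genes (Mcm6 and Mcm7), in mitosis genes (Top2a, Prc1 and Cenpf), and in Cdk1, the central mitotic kinase, whose window holds all 3. Each runs 5′ to 3′ along the gene, from 150 bases before the start to 20 bases from it, and capitals mark the letters matched on either strand. The positions are chr13:42404333-42404502 on the minus strand for Mcm6, chr12:22163159-22163328 (minus) for Mcm7, chr10:84473074-84473243 (minus) for Top2a, chr1:143659331-143659500 (plus) for Prc1, chr13:103760867-103761036 (minus) for Cenpf and chr20:19265143-19265312 (plus) for Cdk1.
Mcm6: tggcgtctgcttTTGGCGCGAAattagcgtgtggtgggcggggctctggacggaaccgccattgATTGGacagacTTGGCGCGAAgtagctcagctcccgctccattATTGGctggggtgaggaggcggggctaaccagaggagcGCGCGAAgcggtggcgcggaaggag
Mcm7: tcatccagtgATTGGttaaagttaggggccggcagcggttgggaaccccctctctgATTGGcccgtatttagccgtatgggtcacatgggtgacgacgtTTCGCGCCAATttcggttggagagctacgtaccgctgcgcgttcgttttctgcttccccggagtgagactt
Top2a: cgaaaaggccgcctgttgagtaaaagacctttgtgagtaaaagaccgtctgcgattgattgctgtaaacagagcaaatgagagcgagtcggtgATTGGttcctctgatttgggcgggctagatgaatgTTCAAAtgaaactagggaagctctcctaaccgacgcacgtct
Prc1: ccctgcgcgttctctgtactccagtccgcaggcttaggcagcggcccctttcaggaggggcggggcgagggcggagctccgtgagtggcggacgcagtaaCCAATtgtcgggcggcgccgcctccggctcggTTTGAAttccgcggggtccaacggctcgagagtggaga
Cenpf: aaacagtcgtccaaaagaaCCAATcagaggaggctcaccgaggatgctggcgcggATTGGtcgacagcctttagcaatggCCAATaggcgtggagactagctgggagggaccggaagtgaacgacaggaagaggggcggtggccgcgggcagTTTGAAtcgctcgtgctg
Cdk1: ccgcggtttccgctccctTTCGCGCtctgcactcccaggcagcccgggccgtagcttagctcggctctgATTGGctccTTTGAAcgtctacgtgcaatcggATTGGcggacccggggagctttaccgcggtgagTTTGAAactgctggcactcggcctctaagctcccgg
In Mcm6 and Mcm7, matches on the opposite strands overlap, so the capitals of TTGGCGCGAA hold 2 E2F-like matches, and in Mcm7 the capitals of TTCGCGCCAAT hold 2 of them and a CCAAT box. In Top2a the CHR letters lie on the opposite strand and read TTCAAA.

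The CHR letters occurred in 14 of the 20 mitosis promoters (70%) and in 1 of the 7 replication promoters (14.3%), that of Mcm2, against 18.3% of all 33469 rat promoters in the table. In the mitosis promoters, 15 of 17 CHR matches read along the gene, and the 17 lay at a median position of -22 bases from the start. The E2F-like letters occurred in 6 of the 7 replication promoters (85.7%) and 4 of the 20 mitosis promoters (20%), against 9.52% of all promoters. CCAAT boxes were in 17 of the 20 mitosis promoters (85%) and 6 of the 7 replication promoters (85.7%), against 37.5% of all. A CHR and a CCAAT box together were found in 13 of the 20 mitosis promoters (65%), in 0 of the 7 replication promoters, and in 7.41% of all. A match is a description of the letters in this window and was not measured as a binding site.

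**Figure D1:**
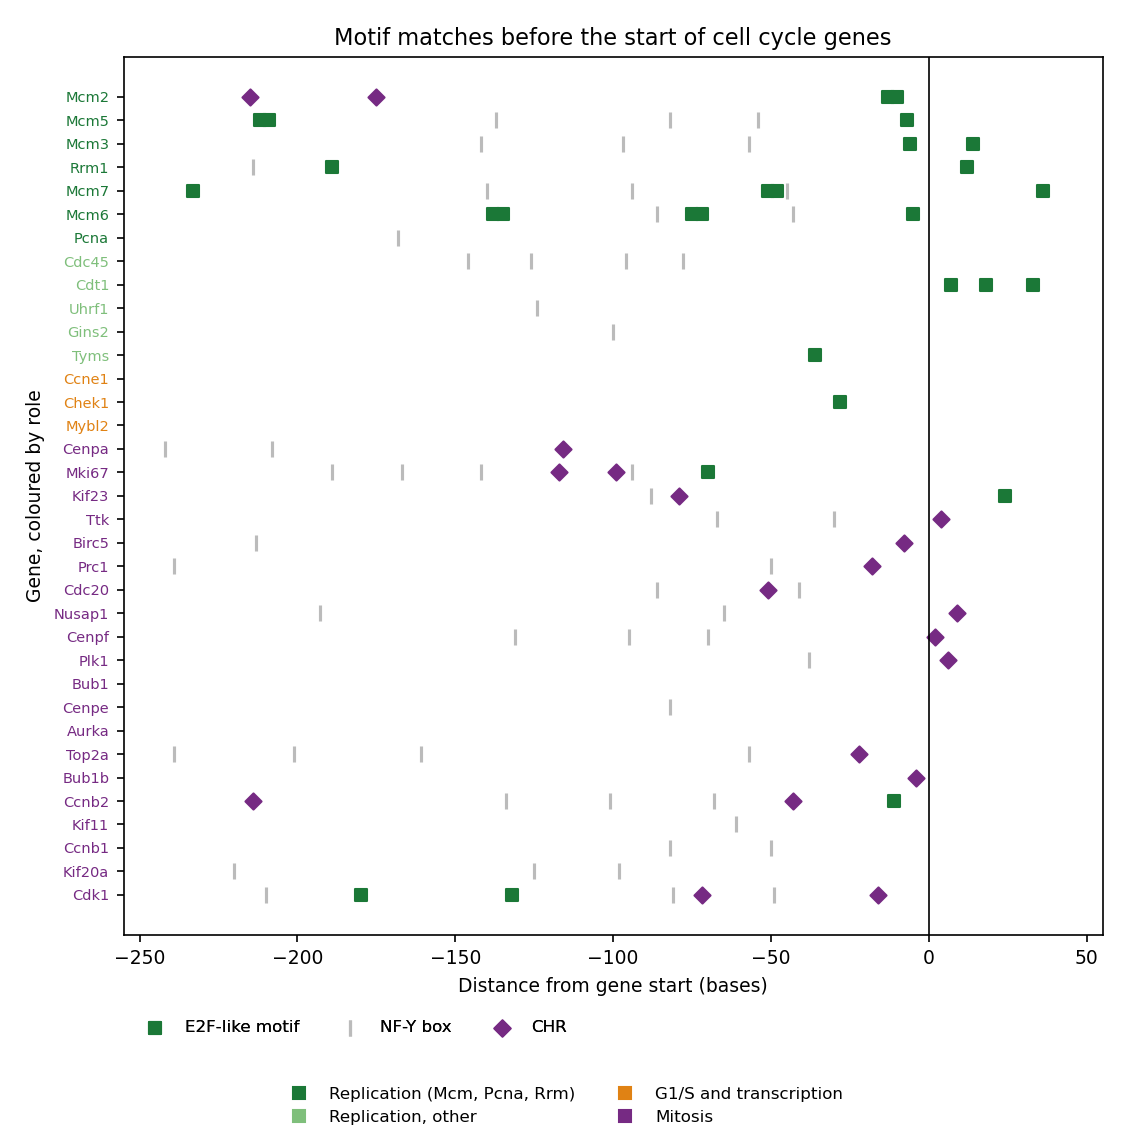
Positions of the motif matches in the promoters of 35 cell cycle genes, 1 row a gene coloured by role, with the horizontal axis giving the distance in bases from the RefSeq transcript start (0). CHR matches (diamonds) lie in 14 of 20 mitosis promoters, and E2F-like matches (squares) in 6 of 7 replication promoters; CCAAT boxes, which bind NF-Y, are the short bars.

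Total counts ran from 34571478 to 37166383 a library. In 10 lists of marker genes, all 109 markers found had counts, covering bone-forming stroma, cartilage, endothelium, skeletal muscle and the marrow lineages, and Gp1bb was not analysed here. At this depth, counts above 0 can occur in many tissues, so they do not test the tibia label. One library differed from the rest of its group: counts of Model 2 gave a chi-square per gene of 33.5 against Model 1 and 28.1 against Model 5, and Model 1 against Model 5 gave 15.9. It was also the lowest Model library for 41 of the 46 cell cycle genes, so counts that rest on it are also given without it. The labels name no batch, and any batch that ran along with the groups and the groups themselves cannot be told apart. The comparisons of PMLGH and of GelMA against Model share the 3 Model libraries. In bulk RNA, scaled levels are shares of a library. Fewer dividing cells, less RNA of these genes per cell and more RNA from other cells therefore cannot be told apart.

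Compared with Model, PMLGH tibia had less RNA of nearly the whole cell cycle set. Of the 46 genes, 42 fell, 0 rose and 4 did not pass (Pcna, Rrm2, Gins2 and Tyms), at an adjusted p under 0.05 in edgeR's quasi-likelihood test over all 16816 genes tested. Among all those genes, 11.9% were called lower and 15.7% higher. All 46 point estimates lay below 0, with a median log2 fold change of -0.27, against 0.02 for all genes. The falls were small. The 42 called genes were 12.8% to 28.5% below Model on the fitted scale, and the median SE of a log2 fold change was 0.06. In 42 of the 46 genes the highest PMLGH library lay below the lowest Model library, which held for 18.4% of all genes. Without Model 2, 45 of the 46 genes were called lower, and without PMLGH 3, the lowest of all 9 libraries for 32 genes, 33 were. Calls over all genes moved the same way: 1994 were lower with all libraries, 2795 without Model 2 and 1268 without PMLGH 3.

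**Figure D2:**
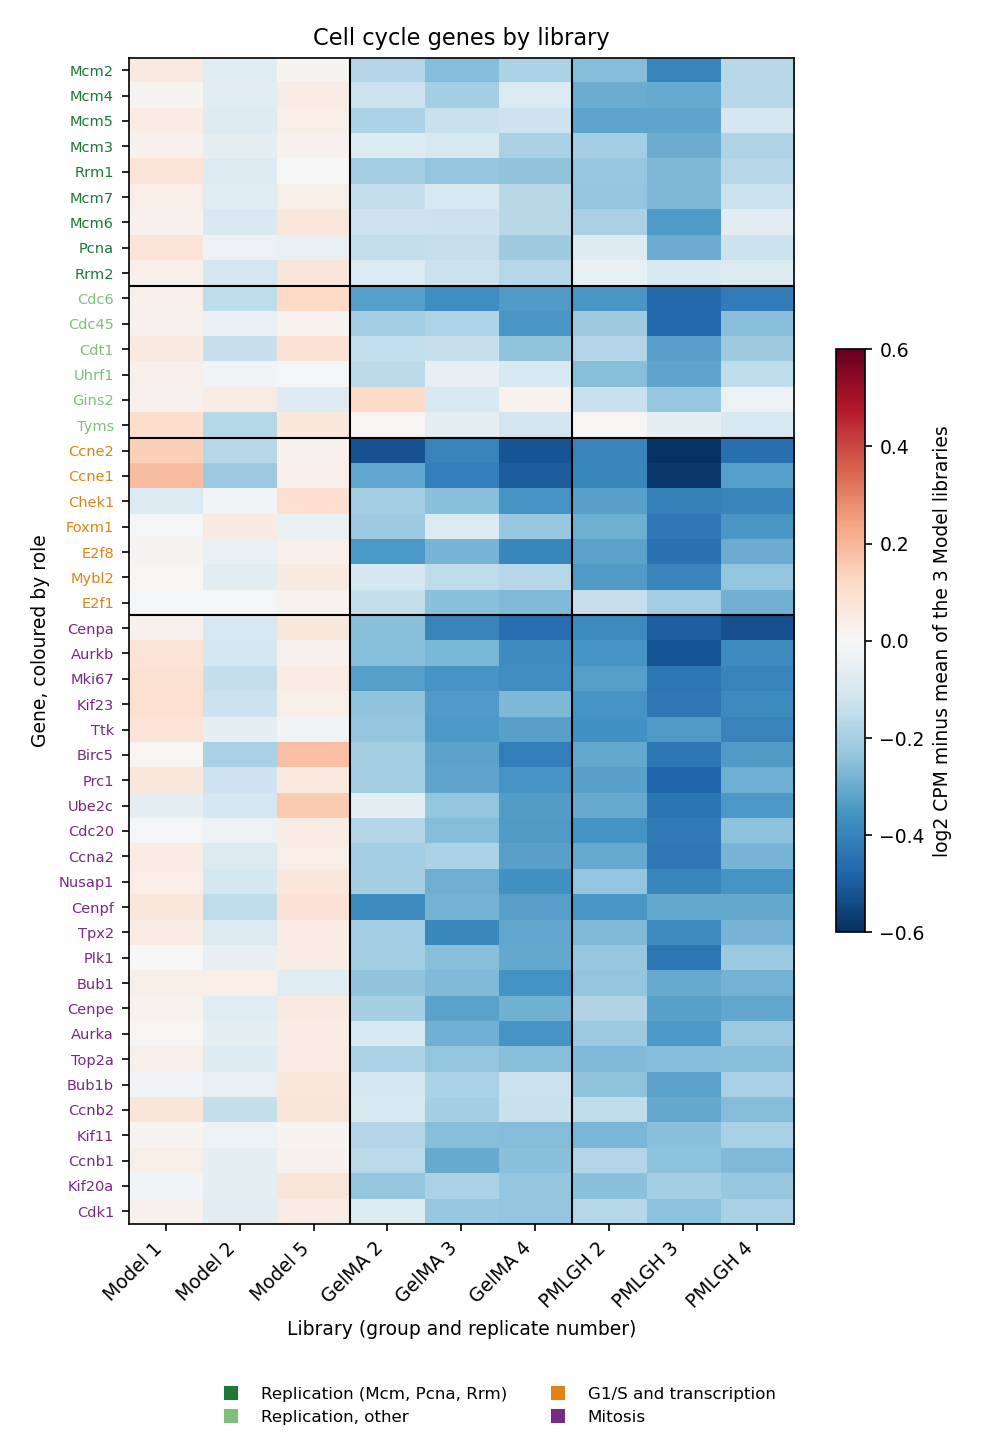
The 46 cell cycle genes (rows, coloured by role) in the 9 libraries (columns); the colour is the log2 CPM (library-scaled counts, as in the text) minus the mean of the 3 Model libraries. The GelMA and PMLGH columns are blue for nearly all genes, PMLGH 3 is the lowest library for 32 genes, and Model 2 is the lowest, and so the bluest, of the Model columns for 41.

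Of the 9 replication genes, 7 fell in PMLGH against Model (4 without PMLGH 3, when Mcm5, Mcm6 and Mcm7 no longer passed), and their median log2 fold change of -0.23 was the nearest to 0 of the 4 roles. Mcm2, a subunit of the replicative helicase, was at 262, 240 and 255 CPM (counts scaled to a common library total) in Model 1, 2 and 5, and at 211, 191 and 225 CPM in PMLGH 2, 3 and 4. Every PMLGH library lay below every Model library, and the gene fell by 0.27 ± 0.06 on the log2 scale (edgeR adjusted p = 0.00506). Mcm5, of the same ring, was at 194, 179 and 193 CPM in Model and at 151, 152 and 176 CPM in PMLGH, a fall of 0.24 ± 0.07 (adjusted p = 0.0127). PMLGH 4 came close to Model 2. The other 4 helicase subunits fell by 0.20 to 0.26, and the libraries of Mcm6 overlapped between the groups. Its call was lost in 6 of 17 alternatives (adjusted p up to 0.21), among them those without Model 1, Model 5, GelMA 2, PMLGH 2 or PMLGH 3. Rrm1, the large subunit of ribonucleotide reductase, which makes deoxynucleotides, fell by 0.23 ± 0.06 (adjusted p = 0.00843).

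Pcna, the sliding clamp of DNA polymerase, was at 271, 251 and 250 CPM in Model and at 244, 209 and 235 CPM in PMLGH. Its libraries did not overlap, but its log2 fold change of -0.17 ± 0.06 did not pass (adjusted p = 0.067). It passed in 6 of the 17 alternatives, among them those without Model 2 or PMLGH 2. Rrm2, the small ribonucleotide reductase subunit, was at 152, 139 and 157 CPM in Model and 144, 140 and 140 CPM in PMLGH. Those groups overlapped, and its value was -0.08 ± 0.06 (adjusted p = 0.353). Rrm2 passed in 1 of the 17 alternatives, without Model 2 (adjusted p = 0.0281).

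Of the 6 other replication genes, 4 fell. Cdc6, which loads the helicase onto origins, fell by 0.42 ± 0.07 (adjusted p = 0.000412), the largest of the 15 replication values. Cdc45, which activates the helicase, fell by 0.31, and Cdt1, the partner of Cdc6, and Uhrf1, which keeps DNA methylation through replication, each fell by 0.24. Cdc45 did not pass without PMLGH 3 (adjusted p = 0.0516), and Cdt1 did not pass when Model 1, Model 5 or PMLGH 3 was left out (adjusted p up to 0.0896). Tyms, which makes the thymidine nucleotide, was at 194, 160 and 188 CPM in Model and at 181, 173 and 169 CPM in PMLGH, with a value of -0.05 ± 0.07 (adjusted p = 0.626). Tyms passed in 1 of the 17 alternatives, without Model 2 (adjusted p = 0.0305). Gins2, a subunit of the active helicase and the least abundant of the 46 genes per length (2.76 ± 0.14 FPKM in Model, SD, n = 3), had -0.13 ± 0.11 (adjusted p = 0.395).

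All 7 genes of the G1/S step and of cell cycle transcription fell, with a median of -0.36. Ccne2 encodes a cyclin E and had the lowest value of the 46. It was at 85.3, 68.6 and 78.5 CPM in Model and at 58.7, 51.2 and 56.4 CPM in PMLGH, a fall of 0.48 ± 0.08 (adjusted p = 0.000405). Ccne1, the other cyclin E, went from 137, 103 and 123 CPM to 91.5, 80.3 and 95.6 CPM, a fall of 0.44 ± 0.09 (adjusted p = 0.00235). For both, Model 2 was the lowest Model library and PMLGH 3 the lowest PMLGH library, and the groups did not overlap. Chek1, a kinase of the replication checkpoint, fell by 0.38, Foxm1 by 0.36, E2f8, a repressor of the E2F family, by 0.35, and Mybl2 by 0.32. E2f1, an activating E2F factor, fell by 0.21 ± 0.07 (adjusted p = 0.0439), a call that was lost without Model 1, Model 5, PMLGH 3 or PMLGH 4 (adjusted p up to 0.156).

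All 24 mitosis genes fell in PMLGH against Model, with a median of -0.32 and a range from -0.47 to -0.20. Cenpa, the histone variant that marks centromeres, had the lowest value. It was at 93.2, 85.6 and 95.9 CPM in Model and 70.2, 64.9 and 63.6 CPM in PMLGH, a fall of 0.47 ± 0.07 (adjusted p = 0.000159). Mki67, the gene of the widely used proliferation marker Ki-67, was at 2037, 1736 and 1983 CPM in Model and at 1520, 1415 and 1450 CPM in PMLGH, a fall of 0.39 ± 0.07 (adjusted p = 0.000431). Here too Model 2 was nearest to PMLGH, and the groups did not overlap. Top2a, the topoisomerase that untangles sister chromatids, was at 505, 468 and 511 CPM in Model and at 411, 413 and 414 CPM in PMLGH. The PMLGH libraries differed by less than 1% of their mean (CV 0.43%), and the fall was 0.26 ± 0.05 (adjusted p = 0.00238).

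Cdk1, the kinase that drives entry into mitosis, had the smallest fall of the 24, from 121, 113 and 122 CPM in Model to 105, 100 and 104 CPM in PMLGH, or 0.20 ± 0.06 (adjusted p = 0.0192), and leaving out Model 1, Model 5 or PMLGH 3 raised the adjusted p past the threshold (up to 0.0826). Ccnb1, its cyclin B partner, went from 172, 161 and 171 CPM to 148, 141 and 139 CPM, a fall of 0.23 ± 0.06 (adjusted p = 0.00722). Plk1, a kinase of centrosomes and kinetochores, went from 131, 127 and 136 CPM to 112, 97.2 and 113 CPM, a fall of 0.29 ± 0.06 (adjusted p = 0.00321). Aurkb and Birc5, which work together in the chromosomal passenger complex, fell by 0.42 and 0.37. Genes of the spindle checkpoint fell by 0.37 (Ttk), 0.28 (Bub1) and 0.25 (Bub1b). The spindle and midzone genes Kif23, Prc1, Nusap1, Tpx2, Kif11 and Kif20a fell by 0.39, 0.37, 0.33, 0.31, 0.24 and 0.23. Cdc20 and Ube2c, which work with the ubiquitin ligase that ends mitosis, fell by 0.34 and 0.36. The cyclins Ccna2 and Ccnb2 fell by 0.34 and 0.24, Aurka, a kinase of the spindle poles, by 0.26, and the kinetochore genes Cenpf and Cenpe by 0.33 and 0.27. The Ccnb2 call depended on Model 1, Model 5, PMLGH 3 and PMLGH 4 (adjusted p up to 0.0755 without 1 of them), and the Aurka call on PMLGH 3 (0.0589).

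GelMA tibia also had less cell cycle RNA than Model, and fewer of the genes passed the test. Of the 46, 30 fell, 0 rose and 16 did not pass, where 9.88% of all genes were called lower and 12.7% higher. The median log2 fold change was -0.23, against 0.03 for all genes, and 45 of 46 values lay below 0. In 40 of the 46 genes the libraries did not overlap and GelMA was lower, as for 16.8% of all genes. The count depended on Model 2, as did the calls over all genes. Without Model 2, 43 of the 46 genes were called lower, and over the other libraries left out in turn the count ran from 22, without GelMA 4, to 31. Over all genes, 1661 were called lower with all libraries, 2468 without Model 2 and 1218 without GelMA 4.

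**Figure D3:**
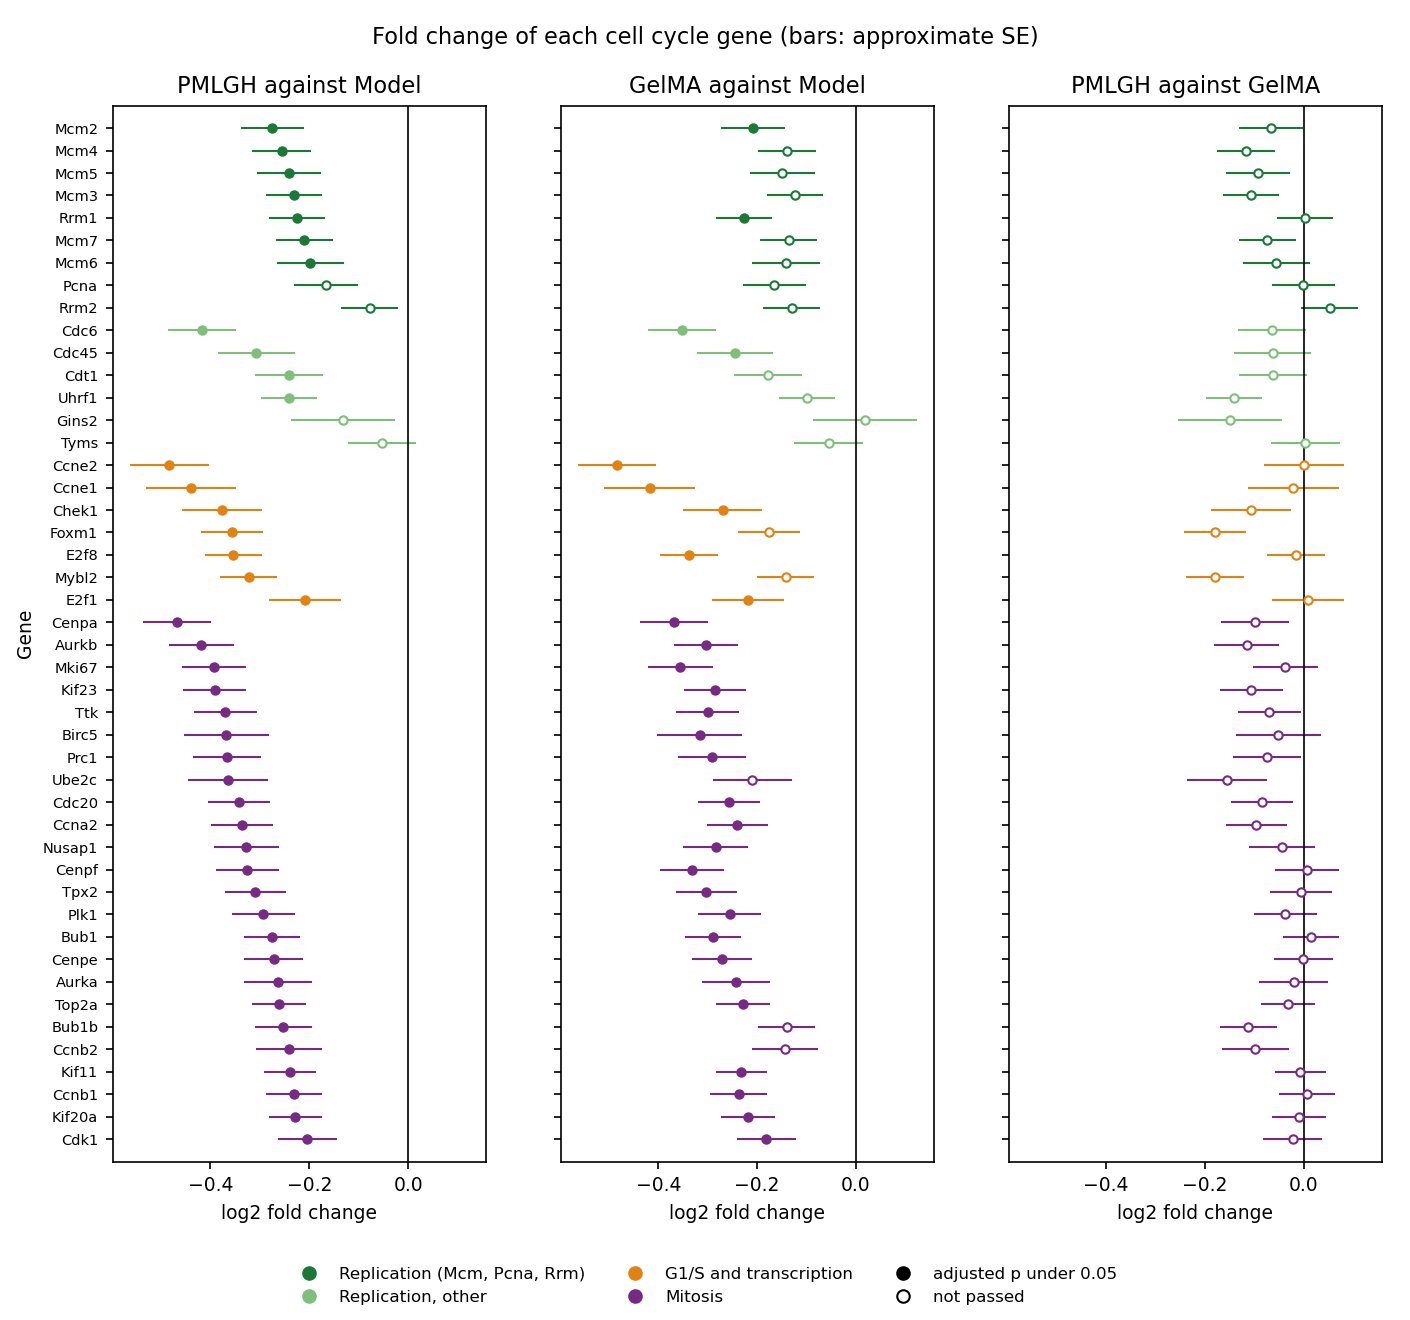
Log2 fold change of each of the 46 cell cycle genes in the 3 comparisons; bars are approximate SEs, colours are roles, and filled points passed an adjusted p under 0.05. Of the 46 points, 42 are filled in PMLGH against Model, 30 in GelMA against Model and 0 in PMLGH against GelMA.

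Among the GelMA values the 2 cyclin E genes were lowest. Ccne2 was at 53.7, 58.5 and 54.0 CPM in GelMA, a fall of 0.48 ± 0.08 from Model (adjusted p = 0.000542), and Ccne1 at 96.6, 90.0 and 84.9 CPM, a fall of 0.42 ± 0.09 (adjusted p = 0.00421). Neither overlapped with Model. In all, 5 of the 7 G1/S and transcription genes fell, while Foxm1 (-0.18, adjusted p = 0.0568) and Mybl2 (-0.14, adjusted p = 0.0934) did not pass.

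Of the 24 mitosis genes, 21 fell in GelMA, with a median of -0.26. Mki67 was at 1522, 1498 and 1479 CPM, a fall of 0.36 ± 0.07 (adjusted p = 0.00126), and Cenpa fell by 0.37 ± 0.07 (adjusted p = 0.00145). Top2a was at 433, 420 and 414 CPM, a fall of 0.23 ± 0.05 (adjusted p = 0.00711). In all 3 of these genes every GelMA library lay below every Model library. Plk1 (114, 110 and 106 CPM) fell by 0.26 and Ccnb1 (150, 136 and 141 CPM) by 0.24. Cdk1 (112, 101 and 101 CPM) fell by 0.18 ± 0.06, at an adjusted p of 0.0396. That call was lost in 7 of 17 alternatives (adjusted p up to 0.12), among them those without Model 1, Model 5, GelMA 3, GelMA 4, PMLGH 3 or PMLGH 4. Ube2c, Bub1b and the cyclin B gene Ccnb2 did not pass, with values of -0.21, -0.14 and -0.14.

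Of the 9 replication genes, only Mcm2 (-0.21 ± 0.06, adjusted p = 0.0294) and Rrm1 (-0.23 ± 0.06, adjusted p = 0.00975) passed in GelMA against Model, although all 9 values lay below 0, with a median of -0.14. Mcm2 was at 223, 211 and 221 CPM in GelMA, and it no longer passed when Model 1, Model 5 or any 1 of the GelMA libraries was left out (adjusted p up to 0.108). Mcm5 was at 165, 172 and 173 CPM (-0.15 ± 0.07, adjusted p = 0.12), and Pcna at 233, 234 and 222 CPM (-0.17 ± 0.06, adjusted p = 0.0774). Neither overlapped with Model. Rrm2, at 141, 136 and 132 CPM, did overlap (-0.13 ± 0.06, adjusted p = 0.124). Without Model 2 all 9 replication genes and all 24 mitosis genes were called lower in GelMA. Without Model 1 the count of replication genes was 0. The count of 2 thus depends on single libraries, and so do the calls over all genes. Those were 1661 lower with all libraries, 2468 without Model 2 and 1035 without Model 1. Of the 6 other replication genes, Cdc6 and Cdc45 fell, Cdc45 with a call that did not hold when Model 1, Model 5, GelMA 2 or GelMA 4 was left out (adjusted p up to 0.112), while Uhrf1, Tyms and Gins2 held the highest values of the 46, at -0.10, -0.06 and 0.02.

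Replication and mitosis genes can be set against each other by size rather than by calls. The median log2 fold change of the 9 replication genes was 0.09 above that of the 24 mitosis genes in PMLGH against Model and 0.12 above it in GelMA against Model. Leaving out each library in turn gave 0.06 to 0.11 and 0.10 to 0.16. Within each library, the mean log2 CPM of the replication genes minus that of the mitosis genes was 0.544, 0.545 and 0.510 in Model 1, 2 and 5. It was 0.588, 0.656 and 0.667 in GelMA 2, 3 and 4, and 0.603, 0.610 and 0.697 in PMLGH 2, 3 and 4. All 6 GelMA and PMLGH libraries thus lay above the 3 Model libraries, Model 2 included, while GelMA and PMLGH overlapped. The sizes of these differences, not their distance from 0, are comparable, because CPM is not scaled to gene length. Members of a role are not replicates, so no test was made. Within the replication genes the roles were not uniform: the 6 helicase subunits had values of -0.27 to -0.20 in PMLGH against Model, and the 3 others -0.23 (Rrm1), -0.17 (Pcna) and -0.08 (Rrm2).

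**Figure D4:**
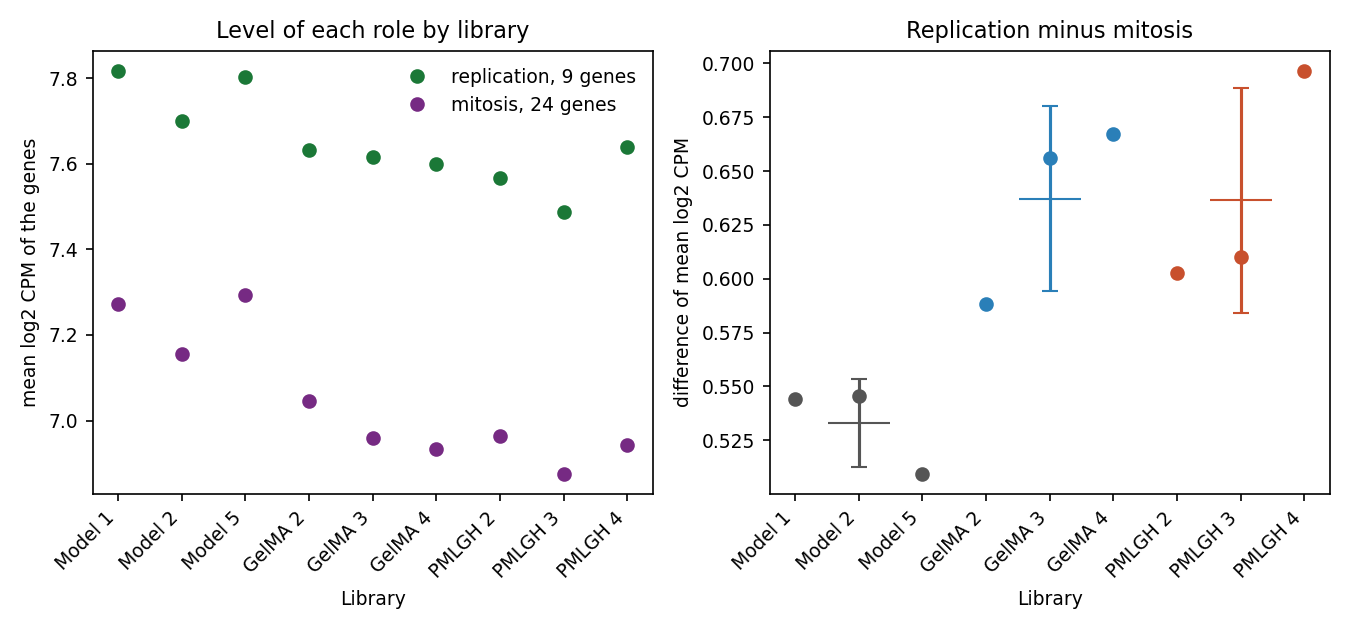
Left, the mean log2 CPM of 9 replication genes and 24 mitosis genes in each library; right, the replication mean minus the mitosis mean, with the group mean (horizontal line) and SD (bar, n = 3). The 3 Model libraries lie at 0.510 to 0.545 on the right and the 6 others at 0.588 to 0.697; neither vertical axis starts at 0.

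Per length, in FPKM (fragments scaled to gene length and library total), the replication genes were the more abundant. Their median Model level was 71.6 FPKM, against 49.99 for mitosis, 31.4 for the other replication genes and 19.9 for the G1/S and transcription genes. Pcna had the highest level of the 46 (219 ± 9.06 FPKM in Model, SD, n = 3), followed by Mki67 (181 ± 13.7), Ube2c (143 ± 13.8) and Rrm1 (109 ± 5.28). In GelMA and PMLGH, Mki67 had 145 ± 0.84 and 139 ± 5.85 FPKM. The spread between libraries was small for most genes: the median CV of the CPM was 4.71% in Model, 4.17% in GelMA and 5.15% in PMLGH, and it was highest for Ccne1 in Model (13.8%).

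Between PMLGH and GelMA, none of the 46 genes passed the edgeR test, and DESeq2 also called 0. Over all genes this comparison called 1.64% lower and 1.8% higher. The median log2 fold change of the 46 was -0.06, and 38 had their lowest group mean in PMLGH and 8 in GelMA. At an unadjusted p under 0.05 there were 3 genes (Uhrf1, Foxm1 and Mybl2), where 15.6% of all genes reached it. Mybl2 was at 162, 153 and 167 CPM in Model, 150, 144 and 142 CPM in GelMA and 127, 122 and 136 CPM in PMLGH. Its 3 groups did not overlap, and PMLGH lay 0.18 ± 0.06 below GelMA on the log2 scale (adjusted p = 0.119). It passed in 1 of 18 alternatives, without Model 2 (adjusted p = 0.0444). Foxm1 was at 72.4, 75.8 and 70.6 CPM in Model, 62.7, 68.8 and 62.2 CPM in GelMA and 59.5, 54.2 and 57.2 CPM in PMLGH. Here Model 2 was the highest library, the groups again did not overlap, and PMLGH lay 0.18 ± 0.06 below GelMA (adjusted p = 0.155). PMLGH lay below GelMA without overlap in 4 of the 46 genes and above it in 0. Over all 16816 genes tested, this held for 1917 and 2074. Ube2c followed with -0.15 ± 0.08 (adjusted p = 0.384), and its GelMA and PMLGH libraries overlapped.

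At the other end, Rrm2 had 0.05 ± 0.06 (adjusted p = 0.738), Bub1 0.01 ± 0.06 (adjusted p = 0.943) and E2f1 0.01 ± 0.07 (adjusted p = 0.975). The values of the genes described above were -0.04 for Mki67, -0.03 for Top2a, -0.04 for Plk1, -0.02 for Cdk1, 0.01 for Ccnb1, -0.07 for Mcm2, -0.09 for Mcm5, 0.00 for Pcna, -0.02 for Ccne1 and 0.00 for Ccne2, with SEs of 0.05 to 0.09. By their calls alone, 12 genes passed in PMLGH against Model and not in GelMA against Model: Mcm3 to Mcm7, Cdt1, Uhrf1, Bub1b, Ccnb2, Ube2c, Foxm1 and Mybl2. None of the 12 passed in PMLGH against GelMA, so a difference between the gels was not shown for them.

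The motif classes shown above can be read against these values. The 15 genes with a CHR had a median log2 fold change of -0.33 in PMLGH against Model, and all 15 were called lower. The 8 genes with E2F-like letters and no CHR (Mcm3, Mcm5, Mcm6, Mcm7, Rrm1, Cdt1, Tyms and Chek1) had -0.23, and 7 were called. In GelMA against Model the medians were -0.28, with 13 of 15 called, and -0.15, with 2 of 8 called. In both comparisons the ranges of the classes overlapped, from -0.47 to -0.20 and from -0.38 to -0.05 in PMLGH against Model. The 12 genes with neither motif had -0.25, and the 11 without a promoter entry -0.35. Since 14 of the 15 CHR genes are mitosis genes, the motif and the role mostly go together. The mitosis genes whose promoter entry held no CHR were Aurka, Bub1, Ccnb1, Kif11, Kif20a and Cenpe. They had -0.28 to -0.23 in PMLGH against Model, inside the range of the CHR genes. A separate part of motif and role was not tested.

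Other genes of the same pathways, from lists that exclude the 46, were lower as well. These lists too were chosen with earlier results of these data known. Of 46 further replication genes, 38 fell in PMLGH against Model and 0 rose, where 11.9% of all genes were called lower. Dut, which removes dUTP, fell by 0.53 ± 0.08 (adjusted p = 0.000125), Wdhd1, which ties the helicase to polymerase, by 0.49 ± 0.08, and Mcm10, an initiation factor, by 0.45 ± 0.07. Of 63 further mitosis genes, 56 fell and 0 rose, with Sgo2, a protector of centromere cohesion, at -0.50 ± 0.08, Cdc25b, the phosphatase that activates Cdk1, at -0.49 ± 0.07, and Kif18a, a kinesin of chromosome alignment, at -0.45 ± 0.07. Only Pimreg lay above 0 among the 63 (0.81 ± 0.43, adjusted p = 0.178), with a mean of 0.644 CPM in Model. In GelMA against Model, 27 of the 46 and 47 of the 63 fell and 0 rose, where 9.88% of all genes were called lower. Dut fell by 0.46 there, Pole, a replicative polymerase, by 0.29, Sgo2 by 0.55, Oip5 by 0.53 and Pbk, a mitotic kinase, by 0.52.

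Of 39 regulators of G1 and inhibitors of the cycle, 17 fell and 4 rose in PMLGH against Model, where 11.9% of all genes fell and 15.7% rose. In GelMA against Model, 13 fell and 6 rose, where 9.88% of all genes fell and 12.7% rose. The rises are thus near or below the shares over all genes. Cdkn1a, which encodes the kinase inhibitor p21, was at 9.05, 10.3 and 9.45 CPM in Model, 14.0, 12.9 and 11.6 CPM in GelMA and 16.8, 18.9 and 16.8 CPM in PMLGH. Its 3 groups did not overlap. It rose by 0.87 ± 0.11 in PMLGH against Model, by 0.42 in GelMA against Model (adjusted p = 0.0124, and up to 0.0546 when Model 1, GelMA 2 or GelMA 3 was left out), and by 0.45 ± 0.11 in PMLGH against GelMA (adjusted p = 0.0275). Cdkn1b, the related inhibitor p27, went the other way, from 228, 196 and 225 CPM in Model to 161, 151 and 158 CPM in PMLGH, a fall of 0.46 ± 0.07.

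Besides Cdkn1a, Gas1, a membrane protein named for growth arrest, rose by 0.59 in PMLGH against Model, Ccnd1, the cyclin D of G1, by 0.46 and Cdkn2b, the inhibitor p15, by 0.86. Btg2, an antiproliferative gene, fell by 0.39 and Fzr1, which keeps the mitotic ubiquitin ligase active in G1, by 0.44. In GelMA against Model, Cdkn2b rose by 1.09, Cdkn1c, the inhibitor p57, by 0.55, and Ccng1, a cyclin G, by 0.21 (adjusted p up to 0.112 without GelMA 3 or GelMA 4), while Fzr1, Rbl1, a pocket protein, and Btg2 fell by 0.43, 0.34 and 0.31. Between PMLGH and GelMA, Rfc2, a subunit of the clamp loader, was lower by 0.32 (adjusted p = 0.0385) and Cdkn1c lower by 0.42 (adjusted p = 0.0322), and Gas1 was higher by 0.36 (adjusted p = 0.017). These calls and that of Cdkn1a rest on most of the 6 libraries: each was lost in 5 or more of the 6 analyses without 1 GelMA or PMLGH library. The adjusted p ran up to 0.145 for Cdkn1a, 0.164 for Rfc2, 0.151 for Cdkn1c and 0.0989 for Gas1. Rfc2 was lost in all 6, while Cdkn1a and Cdkn1c still passed without GelMA 2, and Gas1 without PMLGH 4.

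Erythroid and megakaryocyte markers were lower where the cell cycle genes were lower. Those of B cell precursors had a median log2 fold change of -0.23 in PMLGH and 0.46 in GelMA against Model. The lists of the other lineages had medians above 0 against Model in both gels. All 16 erythroid markers fell in PMLGH against Model (median -0.45) and 15 of 16 in GelMA against Model (median -0.44), none was at 0 counts, and none of the 16 passed between PMLGH and GelMA. Their summed level was 18002, 14492 and 17444 CPM in Model 1, 2 and 5, 12276 to 13206 CPM in GelMA and 11646 to 12987 CPM in PMLGH. The 46 cell cycle genes summed to 8938, 8071 and 8875 CPM in Model 1, 2 and 5, to 7104 to 7436 CPM in GelMA and to 6737 to 7164 CPM in PMLGH. Model 2 was the lowest Model library in both sums. Divided by the erythroid sum, the cell cycle sum was 0.496, 0.557 and 0.509 in Model, 0.563, 0.590 and 0.574 in GelMA and 0.552, 0.578 and 0.555 in PMLGH. On that scale no treated library lay below Model 1 or Model 5, and PMLGH 2 and PMLGH 4 lay below Model 2. Other lineages gave other orders. Divided by the neutrophil precursor sum, the cell cycle sum was 1.29 to 1.88 in Model, 1.26 to 1.31 in GelMA and 1.05 to 1.32 in PMLGH. Divided by the B cell precursor sum, it was 16.9 to 29.4 in Model, 12.9 to 17.2 in GelMA and 19.7 to 25.5 in PMLGH. Of 9 megakaryocyte markers, 8 fell in PMLGH and 7 in GelMA against Model, where 11.9% and 9.88% of all genes were called lower.

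**Figure D5:**
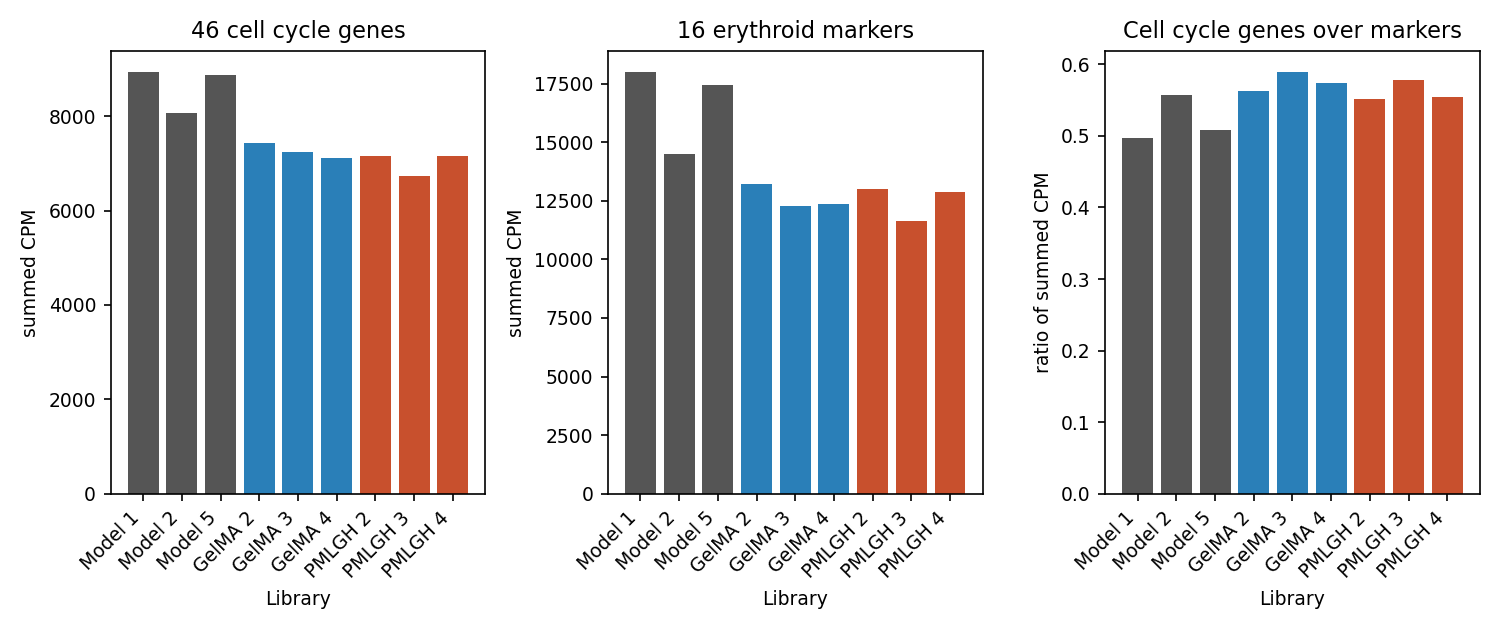
Summed CPM of the 46 cell cycle genes (left), summed CPM of 16 erythroid markers (middle) and their ratio (right) in each library, with bars from 0. Both sums are higher in the 3 Model libraries than in the 6 others, and the ratio is lowest in Model 1 (0.496) and Model 5 (0.509).

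The 12 markers of stroma and osteoblasts summed to 15676 to 19054 CPM in Model, 32119 to 35992 CPM in GelMA and 36648 to 42401 CPM in PMLGH, and all 12 rose against Model in both gels. Skeletal muscle markers summed to 592 to 827 CPM in Model, 2780 to 3395 CPM in GelMA and 932 to 1298 CPM in PMLGH. Those of neutrophil precursors overlapped, at 4762 to 6280, 5404 to 5807 and 5410 to 6658 CPM, with 1 of 10 higher and 1 lower in PMLGH against Model and 0 called in GelMA. Those of B cell precursors were at 302 to 479 CPM in Model, 433 to 550 CPM in GelMA and 280 to 341 CPM in PMLGH, with 2 of 12 lower in PMLGH and 6 of 12 higher in GelMA against Model. Over all genes, 11.9% were called lower and 15.7% higher in PMLGH against Model, and 9.88% and 12.7% in GelMA against Model. The counts of both precursor lists in PMLGH were near those shares. Of 9 macrophage markers, 7 were higher in PMLGH against Model, and 3 higher and 1 lower in GelMA. Of 12 markers of T and NK cells, 8 were higher in PMLGH and 6 in GelMA against Model. The part that any of these cell types has in the values of the cell cycle genes was not tested.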

How the data were processed

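Total RNA of 9 tibia libraries was analysed from 2 tables. Per the file headers, the deposited count table holds raw read counts per gene symbol, and the deposited FPKM table holds FPKM computed by the authors. The submitters' processing notes name DESeq2 and R 3.2.0, with no role. None of aligner, counting tool, genome build, annotation or strand setting was given in the sources used here, and reads of a gene and of its antisense partner may be mixed. For all 22798 genes with counts, FPKM could be rebuilt from the count, the library total and a single length per gene (relative tolerance 1e-04). FPKM were therefore used only for levels between genes.

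Counts were tested with edgeR 4.0.16 in R 4.3.3. filterByExpr kept 16816 of 23768 genes (970 had no counts), TMM scaled the libraries, and the quasi-likelihood model estimated a mean for each group from the 9 libraries together (6 residual degrees of freedom, common biological coefficient of variation 10.1%). Tests were two-sided, with Benjamini-Hochberg adjustment within a comparison and a threshold of 0.05. CPM are counts over TMM-scaled totals. Approximate SEs follow the ± of log2 fold changes and equal the change divided by the square root of F. Values of a group are over n = 3 libraries. The model was also run on counts simulated from its own fit, which cannot show whether its assumptions hold for these libraries. DESeq2 1.42.0, other scalings and filters, and leaving out each library were alternatives. Total counts were 34571478 or more a library; the lowest of the 46 genes, Gins2, had 388 to 481 counts, for which counting error is of the size of the spread between libraries.

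The 46 genes, their roles and the other lists were chosen with earlier results of these data known. Described in full were 12 genes taken by role (Mki67, Top2a, Cdk1, Ccnb1, Plk1, Mcm2, Mcm5, Pcna, Rrm2, Ccne1, Ccne2 and Cdkn1a), the 3 highest and 3 lowest of the 46 in each comparison, and up to 3 called genes of smallest p in each direction from each pathway list; 1 gene that the rule names is not reported here. Others are named with their fold change, and Pimreg and Cdkn2b (in PMLGH against Model) were named after their values were seen. Promoters came from RefSeq (GRCr8). For Uhrf1, which had 3 entries, the first was used.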

Additional observations from a re-analysis of the deposited data

How the results depend on the processing

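No gene of the 46 reversed a call under any alternative. A change of sign in a value that passed in neither analysis was counted as unchanged, which applied to 60 values in PMLGH against GelMA, 7 in GelMA against Model and 0 in PMLGH against Model. Of 782 gene values in PMLGH against Model, 24 lost and 8 gained a call, and of 782 in GelMA against Model, 31 lost and 28 gained one. Over single libraries left out, the genes called lower ran from 33 to 45 in PMLGH against Model, from 22 to 43 in GelMA against Model and from 0 to 1 in PMLGH against GelMA. Other scalings, filters and models gave 41 to 43, 30 to 34 and 0. Over all genes, leaving out single libraries gave 1268 to 2795, 1035 to 2468 and 144 to 464 called lower. For the 9 replication genes the range over libraries left out was 4 to 9 in PMLGH against Model and 0 to 9 in GelMA against Model, where DESeq2 gave 4 against 2 in edgeR. The median difference between replication and mitosis genes in PMLGH against GelMA was -0.03, with a range of -0.0749 to 0.0159, so its sign is not fixed. With all 15 replication genes, the level of replication minus mitosis was -0.135 in Model, -0.0283 in GelMA and -0.0400 in PMLGH, instead of 0.53, 0.64 and 0.64, and Model remained lowest by mean. The causes of these changes were not tested.

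GelMA and PMLGH share the replicate numbers 2, 3 and 4. Deviations of same-numbered libraries correlated at 0.0136, 0.0267 and -0.00834 across genes, and the libraries numbered 4 did not correlate best with each other, so the numbers were not taken as pairs. With the number as a replicate block in these 6 libraries, 0 of the 46 genes were called, as without it, and over all genes 460 were lower and 577 higher, against 469 and 590 without the block in the same libraries.

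Groups of 3 libraries are too small for an outlier rule, and 3 against 3 values allow no exact two-sided permutation p below 0.1.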
